A study of Mus musculus with 8 samples.

Results

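The expression of 40 genes of cell proliferation and DNA replication was examined in the basilar membrane of the mouse cochlea, with and without a conditional knockout of Dnajc17. The genes were listed by function, but with earlier results of these data known. Of them, 22 act in or before DNA synthesis (S phase) and 18 act in mitosis. All 40 were found by symbol among the 78317 genes of the expression table, and all 40 were among the 17811 genes tested, those with a mean of at least 1 TPM. TPM, a transcript's share of its library after scaling to a fixed total, is corrected for transcript length, so levels can be set side by side between genes. Tissue was taken at postnatal day 6 and polyadenylated RNA was sequenced from 4 libraries titled hete and 4 titled homo. The genotype label of the hete libraries is WT and that of the homo libraries is Dnajc17 cKO, so it is not clear whether the controls carry a mutant allele. The sources used here give neither the strain nor the driver of the deletion, the cells in which it acts or the deleted piece of the gene. Whether libraries of a group stem from different animals is also not stated. The p-values therefore weigh a difference only against variation among these libraries, and part or all of that variation may be technical. TPM holds no record of sequencing depth, so the number of reads behind each value is unknown.

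A dividing cell first loads the MCM helicase onto replication origins with Cdc6 and Cdt1, then activates it with Cdc45, the GINS complex and Mcm10, and copies its DNA while the sliding clamp PCNA holds the polymerases in place. Mitosis then needs Cdk1 with cyclins A and B, the Aurora and Polo kinases, spindle motors, and the anaphase-promoting complex, which with Cdc20 and Ube2c marks securin and cyclin B for destruction. Transcription of most S-phase genes is driven by E2F factors through short GC-rich sites, and that of many mitotic genes depends on a cell cycle homology region, or CHR, often with CCAAT boxes nearby. In the mammalian organ of Corti, hair cells and supporting cells leave the cell cycle before birth and are held out of it by inhibitors such as Cdkn1b, whereas glia, mesenchyme and vessels around them still hold dividing cells in the first postnatal days.

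These promoter elements differed in frequency between the S-phase and the mitotic genes, without fully separating them, in a search that used no expression values. RefSeq promoters on GRCm38.p6, from 250 bases before to 50 after the transcription start, were matched to 33 of the 40 genes by symbol. Words were searched on both strands. The E2F words were TTCCCGC, the similar TTCGCGC, the variant TTGCCGC and the variant TTGGCGC. The CHR words were TTTGAA with the variant TTCGAA, and the CCAAT box was CCAAT. An E2F word occurred in the promoters of 11 of 18 S-phase genes (61.1%) and 3 of 15 mitotic genes (20%), against 9.57% of all 32851 promoters and 15.6% of the 14998 promoters of tested genes. A CHR word occurred for 4 of 18 S-phase genes (22.2%) and 12 of 15 mitotic genes (80%), against 19.2% and 13.8%. CCAAT stood in the promoters of 12 of 18 S-phase genes (66.7%) and 14 of 15 mitotic genes (93.3%), against 37.4% and 37.2%. TTGGCGC read on the other strand ends in CCAA, so an E2F word and a CCAAT box can share bases, as they do in the Ccnb1 promoter. A match is a description of the letters only and does not show that a factor binds there.

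The next 7 windows show both kinds of promoter, each as the 170 bases before the start, read 5′ to 3′ on the strand of the gene, with E2F or CHR words in capitals. The S-phase windows are those of Mcm6 (chr1:128359706-128359875, minus strand) and Mcm5 (chr8:75109339-75109508, plus strand), both subunits of the helicase, and Rrm1 (chr7:102441525-102441694, plus strand), the large subunit of ribonucleotide reductase. In Mcm6, pairs of overlapping E2F words on opposite strands make the same 10 letters at -109 and at -46 from the start. Mcm5 carries such an overlapping pair at -152 and a single word at -164, and Rrm1 carries 1 word at -67.
Mcm6: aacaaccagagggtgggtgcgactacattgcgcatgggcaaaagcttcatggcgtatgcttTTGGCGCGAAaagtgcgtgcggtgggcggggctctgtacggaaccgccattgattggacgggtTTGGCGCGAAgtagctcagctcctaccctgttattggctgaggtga
Mcm5: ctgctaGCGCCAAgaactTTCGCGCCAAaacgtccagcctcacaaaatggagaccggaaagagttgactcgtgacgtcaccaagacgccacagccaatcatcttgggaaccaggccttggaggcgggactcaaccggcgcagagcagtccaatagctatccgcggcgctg
Rrm1: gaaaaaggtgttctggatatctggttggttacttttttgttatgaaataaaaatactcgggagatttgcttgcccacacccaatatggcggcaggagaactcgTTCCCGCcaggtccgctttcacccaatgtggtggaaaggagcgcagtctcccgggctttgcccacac
The mitotic windows are those of Cdc20 (chr4:118437344-118437513, minus strand) and Ube2c (chr2:164769759-164769928, plus strand), both of which work with the anaphase-promoting complex, and Kif11 (chr19:37376212-37376381, plus strand), the motor that pushes spindle poles apart. Their CHR words start at -18, -29 and -19, close to the transcription start. Cdk1 (chr10:69352913-69353082, minus strand), the kinase of mitotic entry, is shown because its window holds an E2F word at -130 as well as CHR words at -71 and -15.
Cdc20: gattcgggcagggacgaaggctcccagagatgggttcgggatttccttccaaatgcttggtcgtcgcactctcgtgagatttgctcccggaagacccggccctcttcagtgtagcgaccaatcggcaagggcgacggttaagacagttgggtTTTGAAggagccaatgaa
Ube2c: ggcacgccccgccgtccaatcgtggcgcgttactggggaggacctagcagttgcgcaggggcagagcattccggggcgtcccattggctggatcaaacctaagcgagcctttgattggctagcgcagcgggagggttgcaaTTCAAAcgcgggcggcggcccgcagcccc
Kif11: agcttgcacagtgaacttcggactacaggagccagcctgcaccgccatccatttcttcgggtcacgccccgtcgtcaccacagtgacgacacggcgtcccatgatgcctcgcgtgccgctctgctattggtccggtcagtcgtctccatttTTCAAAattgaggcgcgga
Cdk1: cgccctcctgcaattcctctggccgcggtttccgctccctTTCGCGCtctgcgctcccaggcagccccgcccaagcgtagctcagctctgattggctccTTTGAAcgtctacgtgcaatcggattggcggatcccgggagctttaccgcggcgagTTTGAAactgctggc

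**Figure D1:**
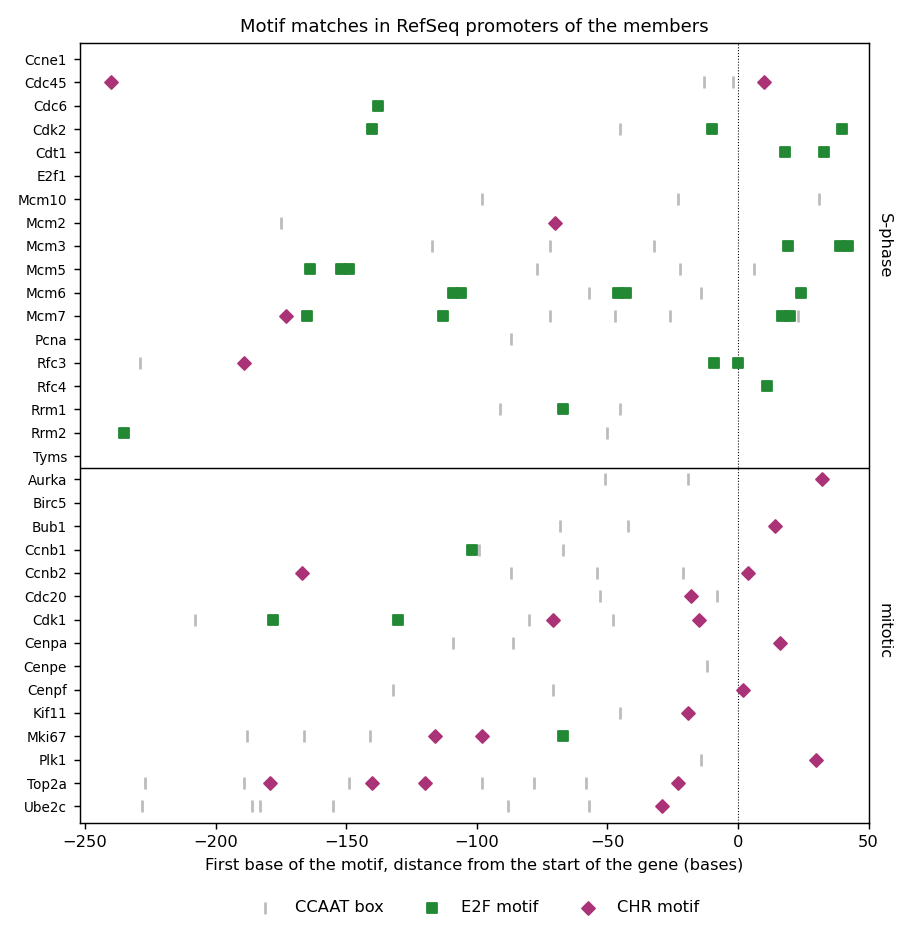
First base of each E2F word (square), CHR word (diamond) and CCAAT box (tick) in the promoters of the 33 matched genes, as the distance in bases from the transcription start, with S-phase genes above and mitotic genes below the line. E2F words lie mostly among S-phase genes and CHR words mostly among mitotic genes, many of them close to the start.

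Libraries of the same and of different groups were about equally alike. Within a group, pairs of libraries had a Pearson correlation of 0.960 to 0.969 across tested genes, and pairs from different groups 0.961 to 0.968. For Dnajc17 itself, hete replicates 1 to 4 read 26.51, 25.45, 25.09 and 22.06 TPM, and homo replicates 1 to 4 read 29.33, 27.65, 31.08 and 18.04 TPM. These ranges overlap, with a log2 fold change of homo over hete of 0.07 (SE 0.15, limma adjusted p = 0.969), and without the deleted piece being known a level for the whole gene cannot check the labels. Of 12 hair cell markers none was listed at 0 in all libraries, and the lowest, Atoh1, averaged 0.644 TPM. Summed markers reached 267 to 537 TPM per library for hair cells and 5583 to 6990 TPM for supporting cells, while glia, mesenchyme, endothelium, erythroid cells and cartilage or bone were also present at 336 TPM or more. In bulk tissue, fewer dividing cells and less of each transcript per dividing cell cannot be told apart.

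Every one of the 40 genes was detected, most of them at low levels. S-phase genes had a median level of 11.4 TPM (range 1.23 to 71.4) and mitotic genes one of 5.11 TPM (range 1.64 to 29.2), beside 14.1 TPM over all tested genes. The mean was below 10 TPM for 15 of 18 mitotic and 9 of 22 S-phase genes, and below 5 TPM for 16 of the 40. Pcna led with a mean of 71.4 TPM over the 8 libraries, followed by Cdk2 (48.0 TPM), Mcm7 (44.0 TPM), Cdk1 (29.2 TPM) and Rfc3 (22.6 TPM). Cdk2 and Mcm7 ranges overlapped, whereas those of Pcna and Cdk2 did not. At the bottom stood Cdc6 (1.23 TPM), the licensing factor, Cenpf (1.64 TPM), a kinetochore protein, and Bub1 (1.93 TPM), a checkpoint kinase. Mki67, the antigen used to stain cycling cells, averaged 4.65 TPM, and Top2a, the topoisomerase that untangles sister chromatids, 14.3 TPM. The 19 genes listed as brakes on the cycle had a median of 25.6 TPM and ranged from 0.09 TPM (Cdkn2a) to 779 TPM (Cdkn1c).

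**Figure D2:**
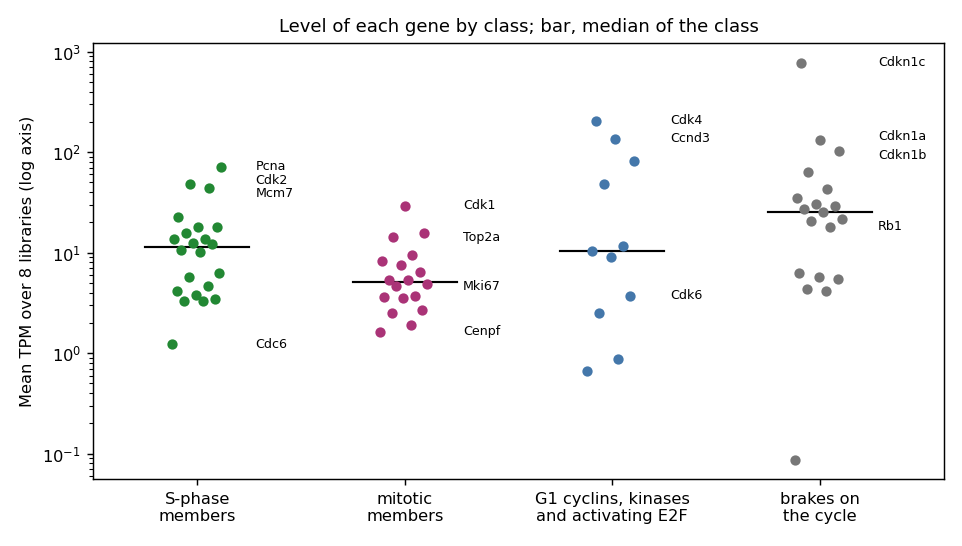
Mean TPM over the 8 libraries (log axis) of each S-phase gene, mitotic gene, G1 cyclin, kinase or activating E2F gene, and brake on the cycle, 1 point per gene, with a bar at the median of the class. Pcna leads the S-phase genes at 71.4 TPM and Cdk1 the mitotic genes at 29.2 TPM, while Cdkn1c reaches 779 TPM among the brakes.

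Between the groups, no gene of the 40 passed the test. The smallest adjusted p was 0.760, for Mcm7 (limma-trend on log2(TPM + 1), Benjamini-Hochberg over 17811 genes), and in the whole data set 2 genes passed, 0.0112% of those tested. At an unadjusted p under 0.05 in the same limma-trend fit, 3 of the 40 were higher in homo (Mcm2, Mcm6 and Mcm7) and 0 lower, where 3.56% of all tested genes were higher and 2.49% lower. Homo means stood above hete means for 32 of 40 genes (80%), compared with 56.3% of all tested genes. The median log2 fold change of the 40 was 0.11 and that of all tested genes 0.02, with values from -0.15 (Cenpf) to 0.30 (Rfc4). Groups did not overlap for 1 gene, Bub1 (2.5%), beside 2.58% of tested genes that did so with homo higher and 1.41% with homo lower. The 40 genes were chosen with earlier results of these data known. They also share regulators and dividing cells and are not independent of each other, so these counts describe the libraries and carry no test.

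Intervals from the same fit, not adjusted for the number of genes, bound these differences. For 37 of 40 genes the 95% interval of the log2 fold change, on the log2(TPM + 1) scale, lay within a 1.5-fold change in either direction, and for all 40 it lay within 2-fold. The exceptions at 1.5-fold were Rfc4, whose interval reached 0.68, Mcm5, whose interval reached 0.60, and Cenpf, whose interval reached down to -0.60. Adding 1 TPM before the logarithm draws in the fold changes, those of the lowest genes most, so these bounds hold on that scale only.

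**Figure D3:**
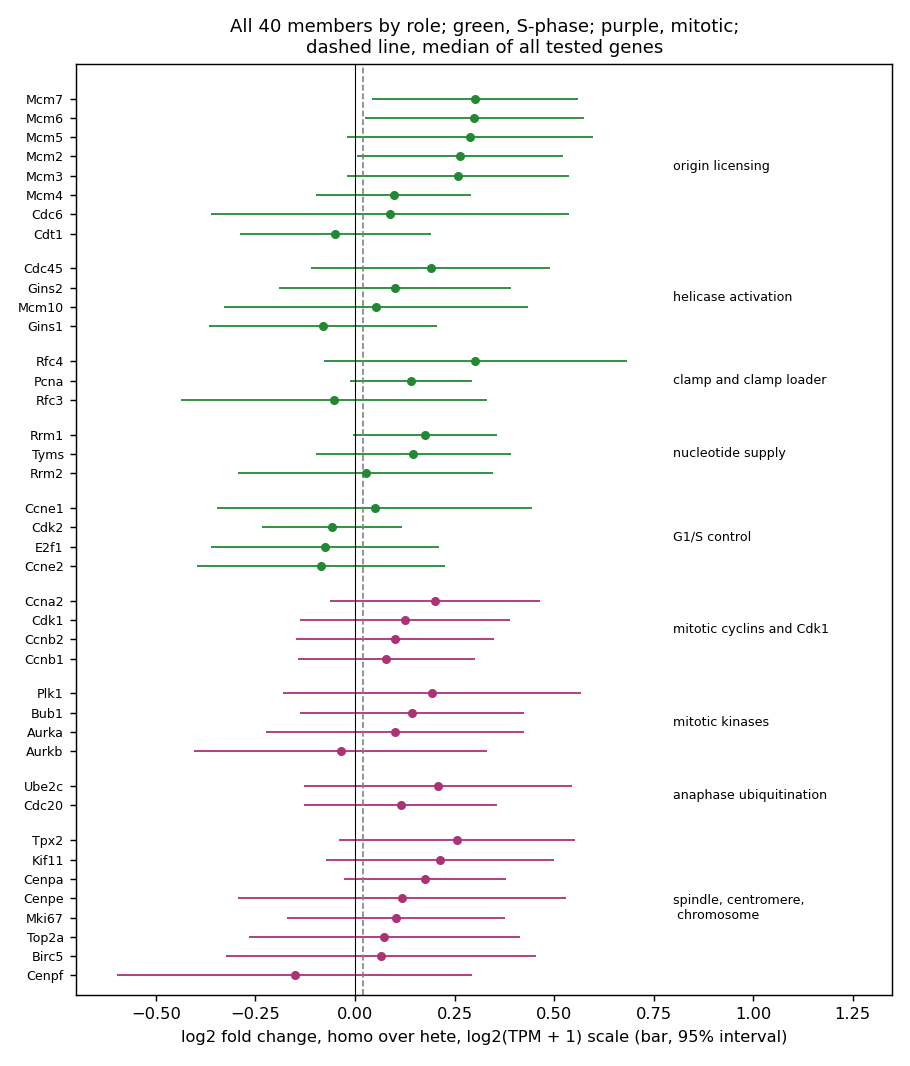
Log2 fold change of homo over hete (point) with its 95% interval (bar) for each of the 40 genes, grouped by role, S-phase genes in green and mitotic genes in purple. The dashed line marks the median of all tested genes, 0.02, and 32 of the 40 points lie above 0. Rfc4, Mcm7, Mcm6, Mcm5, Mcm2 and Mcm3 lie farthest to the right.

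Among the role groups of S-phase genes, origin licensing had the highest median log2 fold change, 0.26, which came from its MCM genes. All 6 genes of the MCM helicase had higher homo means, with log2 fold changes of 0.10 (Mcm4) to 0.30 (Mcm7) and a median of 0.28. Mcm7 had 35.17, 44.43, 46.93 and 31.86 TPM in hete (replicates 1 to 4, the order used throughout) and 49.29, 46.92, 50.38 and 47.28 TPM in homo. Only hete replicate 3 reached the homo range. The means were 39.6 ± 7.22 and 48.5 ± 1.65 TPM (SD, n = 4 each), a log2 fold change of 0.30 (SE 0.12, limma adjusted p = 0.760). Mcm6 had 16.42, 17.93, 14.76 and 14.31 TPM in hete and 17.42, 22.88, 22.67 and 16.55 TPM in homo, with homo replicates 2 and 3 above every other library. Its means were 15.9 ± 1.65 and 19.9 ± 3.36 TPM (log2 fold change 0.30, SE 0.12, limma adjusted p = 0.793). Mcm2, Mcm3 and Mcm5 gave 0.26 (SE 0.12), 0.26 (SE 0.12) and 0.29 (SE 0.14), with overlapping groups. The loading factors did not share this: Cdc6 was at 0.62 to 1.44 TPM in hete and 0.80 to 1.53 TPM in homo (log2 fold change 0.09, SE 0.20), and Cdt1 at 4.44 to 5.10 and 4.04 to 5.06 TPM (-0.05, SE 0.11).

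Summed over Mcm2 to Mcm7, the libraries held 99.47, 112.28, 109.49 and 83.31 TPM in hete and 119.61, 126.61, 126.62 and 114.62 TPM in homo. All 4 homo sums lay above all 4 hete sums, but the gap between the nearest ones, 112.28 and 114.62 TPM, is smaller than the SD of either group (13.1 TPM in hete, 5.85 TPM in homo). These 6 genes were singled out after their values were seen, so no test is given for their sum. The lowest sum is that of hete replicate 4, and without that library the median log2 fold change of the 6 genes was 0.17 in place of 0.28.

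**Figure D4:**
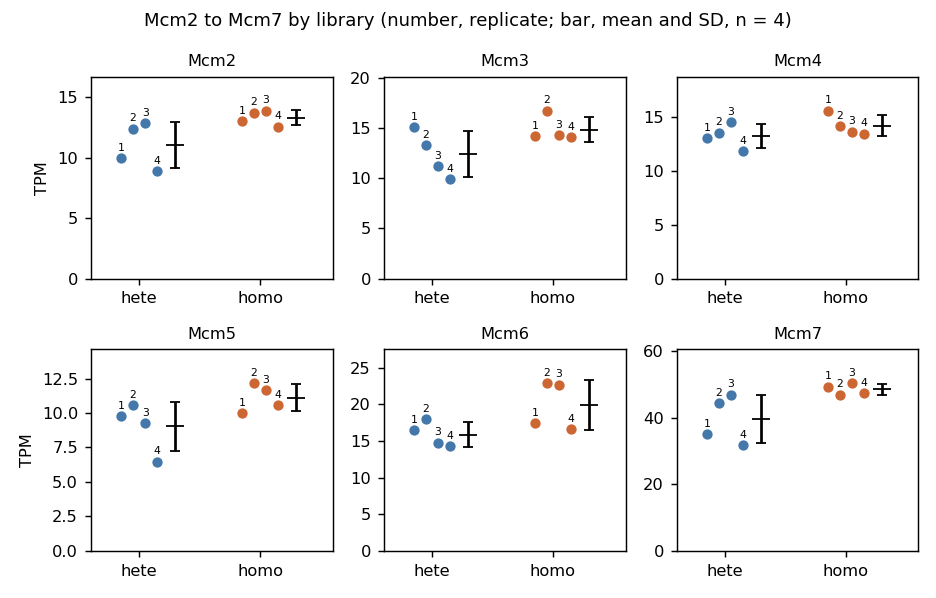
TPM of Mcm2 to Mcm7 in each library, 1 panel per gene, with points numbered by replicate and bars for the group mean and SD (n = 4). Hete replicate 4 is the lowest library in all panels, for example 31.86 TPM for Mcm7, and the groups overlap in every panel.

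The other replication genes were nearer to no difference, with a median log2 fold change of 0.05 over the 16 S-phase genes outside Mcm2 to Mcm7. Helicase activation factors gave -0.08 (Gins1) to 0.19 (Cdc45). Cdc45, which rides with the MCM ring and GINS, had 2.68, 3.42, 4.34 and 3.66 TPM in hete and 3.69, 4.23, 4.39 and 4.19 TPM in homo (SE 0.13, limma adjusted p = 0.874), so hete replicate 3 lay within the homo range. Gins2, a GINS subunit, had 11.10, 12.20, 10.90 and 13.93 TPM in hete and 16.05, 10.48, 13.72 and 12.04 TPM in homo (log2 fold change 0.10, SE 0.13, limma adjusted p = 0.940). The lowest of all 8 Gins2 values was a homo library, and the groups were interleaved. Mcm10, which helps open the helicase, gave 0.05 (SE 0.17).

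Pcna, the sliding clamp, had 71.55, 67.55, 66.29 and 65.91 TPM in hete and 81.15, 78.95, 71.48 and 68.54 TPM in homo. Homo replicates 1 and 2 exceeded every hete library, and the others fell among the hete values (log2 fold change 0.14, SE 0.07, limma adjusted p = 0.860). Rfc4, a subunit of the loader that opens the clamp, had 11.74, 8.40, 10.60 and 7.10 TPM in hete and 9.04, 14.62, 12.48 and 11.31 TPM in homo (log2 fold change 0.30, SE 0.17, limma adjusted p = 0.870). It showed the largest difference of the 40 genes with a wide spread in both groups. Rfc3, another loader subunit, went slightly the other way at -0.05 (SE 0.17), with 15.94 to 31.39 TPM in hete.

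Nucleotide supply genes were all slightly higher in homo. Rrm1 had 18.36, 16.32, 16.22 and 16.09 TPM in hete and 20.36, 18.74, 19.93 and 17.22 TPM in homo, with hete replicate 1 above the lowest homo library (log2 fold change 0.18, SE 0.08, limma adjusted p = 0.827). Tyms, thymidylate synthase, had 16.63, 15.70, 16.22 and 11.70 TPM in hete and 17.06, 17.55, 15.99 and 15.95 TPM in homo (log2 fold change 0.15, SE 0.11, limma adjusted p = 0.884). Its hete replicate 4 stood well below the other 7 libraries, which lay between 15.70 and 17.55 TPM. Rrm2, the small reductase subunit, which limits the enzyme in S phase, gave 0.03 (SE 0.14).

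The 4 genes grouped as G1/S control lay near no difference, each by less than its SE, with 3 of 4 lower in homo and a median of -0.07. G1 cyclins, their kinases and activating E2F genes, listed apart, were 8 of 9 higher. Cdk2, the kinase partner of cyclin E, had 47.69, 52.57, 43.78 and 51.95 TPM in hete and 48.83, 46.45, 49.79 and 42.92 TPM in homo (log2 fold change -0.06, SE 0.08, limma adjusted p = 0.944). Ccne2, a cyclin E, had 4.31, 3.43, 4.15 and 5.57 TPM in hete and 4.25, 4.43, 3.50 and 3.90 TPM in homo (-0.09, SE 0.14, limma adjusted p = 0.955). The groups overlapped for both, and the Ccne2 value turned to 0.02 without hete replicate 4. E2f1, the transcription factor, gave -0.08 (SE 0.13) and Ccne1 0.05 (SE 0.18).

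Of the mitotic genes, 16 of 18 had higher homo means, with a median log2 fold change of 0.12, and 0 passed the limma-trend test at either the adjusted or the unadjusted threshold of 0.05. Mitotic cyclins and their kinase were all on the higher side. Cdk1 had 30.21, 22.30, 31.99 and 27.22 TPM in hete and 30.03, 29.27, 35.20 and 27.24 TPM in homo (log2 fold change 0.13, SE 0.12, limma adjusted p = 0.911). Ccna2, cyclin A2, had 6.51, 5.93, 6.63 and 4.79 TPM in hete and 7.42, 6.10, 7.47 and 6.92 TPM in homo (0.20, SE 0.12, limma adjusted p = 0.870). Cdk1 values of the groups were interleaved, while homo replicate 2 lay among the hete values of Ccna2 and the other homo libraries above them. The cyclins B, Ccnb1 and Ccnb2, gave 0.08 (SE 0.10) and 0.10 (SE 0.11).

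Mitotic kinases were expressed at 1.93 to 3.74 TPM on average. Plk1, the Polo kinase, had 2.32, 3.53, 4.32 and 2.91 TPM in hete and 4.00, 3.18, 4.64 and 3.54 TPM in homo (log2 fold change 0.19, SE 0.17, limma adjusted p = 0.905), with hete replicate 3 above 3 of the 4 homo libraries. Bub1 had 1.61, 1.84, 1.78 and 1.90 TPM in hete and 2.05, 2.04, 2.00 and 2.20 TPM in homo, the only gene of the 40 whose groups did not overlap. The gap lies between hete replicate 4 and homo replicate 3, and the fit gave a log2 fold change of 0.14 (SE 0.13, limma adjusted p = 0.905). Aurka gave 0.10 (SE 0.15), and Aurkb, the kinase of the chromosomal passenger complex, -0.04 (SE 0.17).

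Both genes of anaphase ubiquitination had higher homo means, with a median log2 fold change of 0.16. Cdc20, the activator of the anaphase-promoting complex, had 8.42, 10.48, 8.49 and 9.04 TPM in hete and 8.28, 10.64, 10.69 and 10.21 TPM in homo (log2 fold change 0.11, SE 0.11, limma adjusted p = 0.911). Ube2c, its ubiquitin-conjugating enzyme, had 7.88, 7.88, 8.17 and 6.16 TPM in hete and 9.95, 7.86, 11.17 and 6.81 TPM in homo (0.21, SE 0.15, limma adjusted p = 0.879). Homo replicates 1 and 3 of Ube2c exceeded all hete libraries while homo replicate 4 was lower than 3 of them.

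For the spindle, centromere and chromosome genes, 7 of 8 had higher homo means. Tpx2, which activates Aurora A on the spindle, had 5.17, 4.56, 4.22 and 4.94 TPM in hete and 6.98, 6.29, 5.77 and 4.48 TPM in homo (log2 fold change 0.26, SE 0.13, limma adjusted p = 0.870). Homo replicate 4 was the exception to a separation seen in the other 3 homo libraries. Cenpa, the centromeric histone, had 13.51, 16.98, 13.62 and 14.06 TPM in hete and 17.04, 16.33, 15.22 and 17.48 TPM in homo (0.18, SE 0.09, limma adjusted p = 0.870), with hete replicate 2 inside the homo range. The remaining genes were Kif11 at 0.21 (SE 0.13), Cenpe at 0.12 (SE 0.18), Mki67 at 0.10 (SE 0.12), Birc5 (survivin) and Top2a at 0.07 each (SE 0.17 and 0.15), and Cenpf at -0.15 (SE 0.20).

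The gap between S-phase and mitotic genes differed between the genotypes by less than its spread between libraries. The mean log2(TPM + 1) over the 22 S-phase genes was 3.43 ± 0.10 in hete and 3.54 ± 0.08 in homo, and over the 18 mitotic genes 2.66 ± 0.10 and 2.78 ± 0.10 (SD, n = 4 libraries each). The S-phase mean minus the mitotic mean was 0.90, 0.76, 0.69 and 0.72 in hete and 0.74, 0.85, 0.68 and 0.76 in homo replicates 1 to 4. Its group means were 0.77 ± 0.09 and 0.76 ± 0.07, a difference of -0.01, smaller than the spread within either group. Median log2 fold changes of the 2 classes were also close, at 0.10 for S phase and 0.12 for mitosis. They moved with single libraries: the S-phase median was 0.05 without homo replicate 1 and 0.16 without homo replicate 4. The mitotic median was 0.07 without homo replicate 3. The S-phase class was uneven, with a median of 0.28 for Mcm2 to Mcm7 and 0.05 for its other 16 genes. By promoter, genes with an E2F word but no CHR word had a median log2 fold change of 0.13 (n = 10), genes with CHR but no E2F word 0.16 (n = 12), genes with both 0.11 (n = 4) and genes with neither 0.07 (n = 7).

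**Figure D5:**
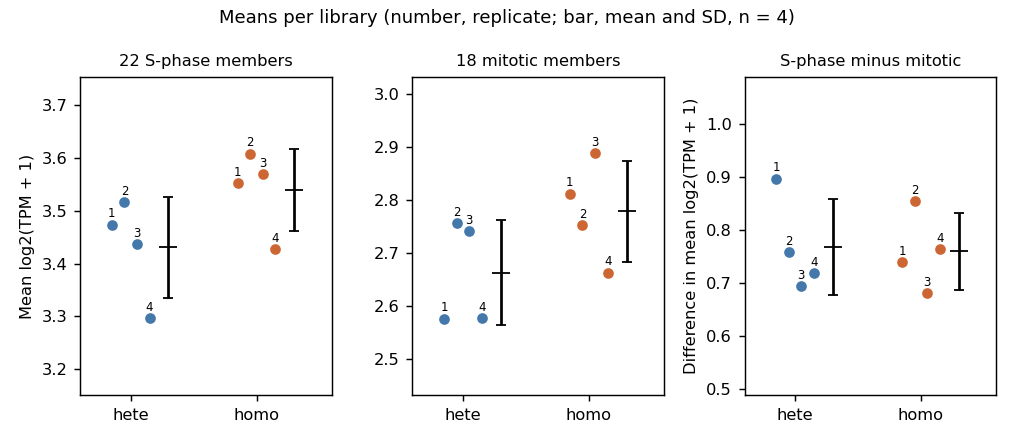
Mean log2(TPM + 1) of the 22 S-phase genes and of the 18 mitotic genes, and the difference between them, 1 numbered point per library, with the mean and SD of each group of 4. Homo libraries tend higher in the first 2 panels, where hete and homo overlap, and hete replicate 4 has the lowest S-phase mean at 3.30, while the group means in the third panel are nearly level.

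Single libraries moved these counts. Hete replicate 4 was the lowest of the 8 libraries for 13 of 22 S-phase genes but 4 of 18 mitotic genes, beside 15.1% of all tested genes. Hete replicate 1 was the lowest for 7 of 18 mitotic and 1 of 22 S-phase genes, beside 26.6% of all tested genes. Homo replicate 3 was the highest library for 9 of 18 mitotic and 4 of 22 S-phase genes, beside 14.1% of all tested genes. Homo replicate 2 was the highest for 7 of 22 S-phase and 1 of 18 mitotic genes, beside 8.14%. Without hete replicate 4, 28 of the 40 genes had higher homo means in place of 32, and 0 had an unadjusted p under 0.05 in the limma-trend fit in place of 3. In hete replicate 4 the summed hair cell markers were also the highest, at 537 TPM against 369 to 414 TPM in the other hete libraries, and the summed erythroid markers the lowest, at 2473 TPM against 4070 to 5336 TPM.

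Marker sums of some cell types also differed between the groups, although no marker of the 10 cell type lists passed the adjusted limma-trend test. Summed hair cell markers were 369 to 537 TPM in hete and 267 to 364 TPM in homo, with 8 of 11 tested markers lower in homo. Summed supporting cell markers were 5583 to 6248 TPM in hete and 6510 to 6990 TPM in homo, with 9 of 12 higher. Both pairs of ranges do not overlap, and neither do those of neutrophil markers (8.45 to 12.3 and 14.7 to 60.4 TPM, 4 of 5 tested markers higher). A sum weighs abundant markers most. The supporting cell sum is mostly that of 1 gene with a mean of 4402 TPM, where the median of the list was 61.7 TPM. Taken singly, the groups did not overlap for 4 of 12 supporting cell markers with homo higher (Tecta, Tectb, Otog and Jag1). With homo lower there were 0, beside 2.58% of all tested genes with homo higher and 1.41% with homo lower. Sums overlapped for Schwann cells and satellite glia (1646 to 2263 and 1607 to 2517 TPM, 8 of 10 higher), neurons (10 of 10 higher), mesenchyme (6 of 9 higher), endothelium (4 of 10), macrophages (4 of 10), erythroid cells (1 of 7), and cartilage and bone (4 of 9). The part of these cells in the values of the proliferation genes was not tested.

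Genes of the same pathways outside the 40 were examined from lists. Of 37 other S-phase genes tested, 21 had higher and 16 lower homo means, with a median log2 fold change of 0.02, equal to that of all tested genes. Prim2, the large primase subunit, had 9.14 ± 1.05 TPM in hete and 10.98 ± 0.32 TPM in homo (SD, n = 4 each), a log2 fold change of 0.25 (SE 0.09). Orc6, a subunit of the origin recognition complex, went the other way, from 32.9 ± 2.14 to 29.1 ± 1.80 TPM (-0.17, SE 0.07). The groups did not overlap for either gene, 1 of 37 in each direction, beside 2.58% of all tested genes with homo higher and 1.41% with homo lower, and neither passed the adjusted limma-trend test. Pold1, the catalytic subunit of polymerase delta, gave 0.29 (SE 0.13). Of 48 other mitotic genes, 33 were higher and 15 lower in homo, with a median of 0.06. Those include Bub1b at 0.27 (SE 0.18), Nusap1 at 0.21 (SE 0.11) and Racgap1 at 0.29 (SE 0.17).

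Brakes on the cycle were 13 of 18 higher in homo, with a median log2 fold change of 0.04. Cdkn1c (p57), the most abundant of them, had 823.03, 831.74, 822.91 and 661.12 TPM in hete and 672.22, 802.23, 813.93 and 807.23 TPM in homo. Cdkn1b (p27), which restrains division of supporting cells, had 97.18, 92.05, 105.64 and 117.38 TPM in hete and 111.26, 103.27, 93.76 and 109.73 TPM in homo. Cdkn1a (p21), a target of p53, had 125.06, 130.73, 122.12 and 138.14 TPM in hete and 136.75, 131.03, 135.72 and 126.16 TPM in homo. All these groups overlapped. Rbl1 (p107), on chromosome 2, was the 1 gene of 18 whose groups did not overlap (homo higher, as for 2.58% of all tested genes), at a log2 fold change of 0.25 (SE 0.11). Cdkn2d stood lowest at -0.18 (SE 0.10), and E2f4, a repressive E2F, gave 0.12 (SE 0.10). Among G1 cyclins, their kinases and activating E2F genes, 8 of 9 were higher, with a median of 0.04. Cdk4 had 193 ± 17.9 TPM in hete and 219 ± 21.7 TPM in homo (0.18, SE 0.09), Cdk6 gave 0.32 (SE 0.16) and Ccnd2 0.13 (SE 0.10). No gene of these 4 lists passed the adjusted limma-trend test.

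Some of the 40 values may depend on how neighbouring reads were assigned. Exons of 10 of the genes overlap a gene on the other strand in GENCODE M21, and whether the authors used strand in counting is not stated, although the library preparation was stranded. Mcm7 overlaps Cops6 (104 TPM) and Ap4m1 (27.7 TPM), Rfc4 overlaps Eif4a2 (749 TPM) and Cdk2 overlaps Pmel (70.4 TPM). Without strand, reads from the shared stretches could not be told apart, and the length of these stretches was not measured. The others are Ccna2, Ccne2, Cdc20, Cdc45, Gins2, Plk1 and Ube2c. Of these, Plk1 and Ube2c overlap genes with hardly any expression, Gm44985 (0.07 TPM) and Tnnc2 (0.21 TPM), which leaves few reads to confuse. Of genes with a named pseudogene, Ccnb2 is the uncertain one, since Ccnb2-ps was listed at a mean of 2.86 TPM beside 5.37 TPM for Ccnb2 itself. Mcm5 and Mcm6 overlap no other gene's exons. Dnajc17 lies on chromosome 2, as do 8 of the 40 genes (Mcm10, Gins1, Pcna, E2f1, Aurka, Bub1, Ube2c and Tpx2), where groups did not overlap with homo higher for 4.53% of 1279 tested genes. Their median log2 fold change was 0.12, beside 0.11 for the other 32 genes.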

How the data were processed

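Polyadenylated RNA of the P6 basilar membrane was measured in 8 libraries, grouped by title. The authors deposited TPM for each gene and library. Fastp, HISAT2, StringTie, RSEM, DESeq2 and GRCm39 are named, with neither versions nor roles, per the submitters' processing notes, and the library preparation was stranded per the labels' protocols. No read counts were used. TPM values were transformed to log2(TPM + 1), genes whose mean reached 1 TPM were kept, and homo was compared with hete in limma 3.58.1 (R 4.3.3; eBayes with trend and robust options, genotype as the only term, all 8 libraries). P-values were Benjamini-Hochberg adjusted over 17811 genes, with 0.05 as the threshold, and the steps were tested on simulated data. There, 58.2% of planted 1.5-fold and 91% of planted 2-fold changes were called, and 13 of 176 calls were false. Genes at low levels received no planted change, so the simulation does not cover them. With 176 calls in the simulation and 2 in the real data, the adjusted threshold was easier to pass in the simulation. These rates therefore do not tell how many changes of that size would be called among the 40 genes. The 40 genes, the other gene lists, the cell type markers and the split into S phase and mitosis were chosen with earlier results of these data known. By rule, the 2 genes of each of 9 role groups with the smallest p, and Dnajc17, are given in every library, and the 3 with the smallest p of each other pathway list are named. Cdkn1a, Cdkn1b and Cdkn1c were chosen for their level after values were seen. Promoters came from RefSeq (GRCm38.p6) and overlapping exons from GENCODE M21. No coordinates on GRCm39 are printed. Alternatives were quantile normalization, a pseudocount of 0.1, other filters, a replicate block and each library left out. A rescaling over protein-coding nuclear genes was added after seeing the data. Replicate numbers gave correlations of -0.08 to 0.05 between same-numbered libraries. Plots used matplotlib 3.10.9 and Python 3.11.15.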

Additional observations from a re-analysis of the deposited data

Results flagged for a closer look

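Among 112 groups of 4 libraries checked (the 40 genes, Dnajc17, the other pathway genes named by rule, and the S-phase and mitotic means with their difference, each in hete and homo), 10 held a library far from the other 3, by a gap of over 0.829 of the group's range. Chance flags about 1 in 20 such groups. In S-phase genes these were Mcm3 in homo replicate 2 (16.76 TPM, others 14.16 to 14.35), Rfc3 in homo replicate 4 (19.13 TPM, others 22.58 to 23.06), Rrm1 in hete replicate 1 (18.36 TPM, others 16.09 to 16.32) and E2f1 in hete replicate 3 (2.98 TPM, others 3.52 to 3.57). In mitotic genes they were Ube2c in hete replicate 4 (6.16 TPM, others 7.88 to 8.17), Cenpa in hete replicate 2 (16.98 TPM, others 13.51 to 14.06), Cenpe in hete replicate 4 (3.45 TPM, others 1.97 to 2.11) and Mki67 in hete replicate 1 (3.66 TPM, others up to 4.76). Outside the 40 genes they were Prim2 in homo replicate 4 (10.5 TPM, others 11.11 to 11.18) and Ccnd2 in hete replicate 4 (38.45 TPM, others 48.33 to 49.76). Hete replicate 4 is low for Ube2c and Ccnd2 and high for Cenpe.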

How the results depend on the processing

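None of the 40 proliferation genes passed limma-trend in any of 14 settings, the smallest adjusted p being 0.692, and 27 kept their direction in all settings that tested them, all 6 of Mcm2 to Mcm7 among them. Higher homo means were found for 32 of 40 genes under quantile normalization, a pseudocount of 0.1 and the rescaling over protein-coding nuclear genes, for 21 of the 24 genes left by a filter of 5 TPM in 4 libraries, and for 28 to 35 when 1 library was left out. In the whole data set 2 genes were called, 1 with no filter, 1 with the replicate block and 1 to 5 with 1 library left out. Same-numbered libraries did not deviate together (0 of 4 correlations above 0.1), so the numbers were not taken as pairs. Neither the replicate block nor the missing filter can change a fold change in this design, so they bear on p-values only.

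With 1 library left out, the median log2 fold change ran from 0.09 to 0.15 for the 40 genes, 0.05 to 0.16 for S phase, 0.07 to 0.16 for mitosis and 0.17 to 0.34 for Mcm2 to Mcm7, and the S-phase minus mitotic difference from -0.04 to 0.04. The range was -0.17 to 0.017 for Ccne2, above 0 without hete replicate 4, and -0.014 to 0.24 for Dnajc17, below 0 without homo replicate 3. The number of the 40 with an unadjusted p under 0.05 ran from 0 (without hete replicate 4 or homo replicate 3) to 5, and was 1 under quantile normalization. The S-phase minus mitotic difference was 0.03 outside chromosome 2 and -0.01 without Ccna2, Top2a and Mki67. Sequencing depth is unknown, and 16 of the 40 genes averaged under 5 TPM, where TPM is least precise.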
